A study of Homo sapiens with 8 samples.

Results

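The 10 genes described here are the receptors and direct targets of transforming growth factor beta (TGF-beta) and bone morphogenetic protein (BMP) signalling that belong to endothelial biology. They are 5 receptors (ACVRL1, ENG, BMPR2, TGFBR1 and TGFBR2) and 5 targets (ID1, ID2, ID3, SMAD6 and SMAD7), chosen by symbol from a table of 34415 genes, and all 10 had a row. The cells were TeloHAEC, a telomerase-immortalised line of human aortic endothelial cells labelled wild type. According to the titles all 8 libraries came from cells given palmitic acid, a saturated fatty acid, and 4 of them, the estradiol group, also from cells given estradiol, while the other 4 were controls. The treatment field names palmitic acid only for the estradiol libraries, so whether the controls received it rests on the titles. Doses and times were not given in the sources used here. A single immortalised line was used. No label says that the replicates of a group were separate cultures, so each p-value rests on library-to-library variation that may be technical.

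Ligands of this family bring together type II and type I receptor kinases, and the type I kinase phosphorylates SMAD proteins that carry the signal to the nucleus. In endothelium, ACVRL1 (also called ALK1) with the co-receptor ENG (endoglin) answers circulating BMPs through SMAD1, SMAD5 and SMAD9, whereas TGFBR1 with TGFBR2 answers TGF-beta mainly through SMAD2 and SMAD3. The ID genes are early targets of the BMP branch and encode helix-loop-helix proteins that lack a DNA-binding region and hold other factors off DNA. SMAD6 and SMAD7 are the inhibitory SMADs, which these pathways induce and which act back on the receptors.

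Reference promoter sequence shows where the targets differ in the short stretch upstream of their starts. RefSeq windows (GRCh38.p14) were found for 9 of the 10 genes, all but ACVRL1. They come from the reference and not from these cells. The 250 bases upstream of the start are printed for ID1, the target with the largest difference between the groups over the 8 libraries, for ID3, the most abundant target, and for SMAD6, the member whose window held a palindromic SMAD element. Capitals mark the element GTCTAGAC (SMAD6), the SMAD box CAGAC (ID3) and a TATAAA box (ID1), the SMAD motifs searched on both strands and TATAAA on the gene's strand.
ID1: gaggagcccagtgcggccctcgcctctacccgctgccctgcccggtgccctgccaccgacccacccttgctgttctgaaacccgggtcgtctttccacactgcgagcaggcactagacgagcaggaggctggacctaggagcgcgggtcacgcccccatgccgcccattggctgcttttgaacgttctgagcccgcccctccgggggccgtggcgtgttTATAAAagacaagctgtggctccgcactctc
ID3: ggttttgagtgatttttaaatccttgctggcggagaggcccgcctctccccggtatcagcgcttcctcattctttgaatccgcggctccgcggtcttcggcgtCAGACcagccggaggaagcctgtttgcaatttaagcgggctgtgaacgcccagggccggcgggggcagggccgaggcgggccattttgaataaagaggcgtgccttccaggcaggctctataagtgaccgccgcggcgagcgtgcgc
SMAD6: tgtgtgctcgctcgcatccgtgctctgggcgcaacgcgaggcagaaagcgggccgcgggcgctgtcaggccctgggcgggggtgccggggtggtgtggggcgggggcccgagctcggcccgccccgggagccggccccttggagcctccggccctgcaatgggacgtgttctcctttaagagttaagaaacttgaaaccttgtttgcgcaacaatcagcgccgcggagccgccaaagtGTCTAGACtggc

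These stretches lie at chr20:31605039-31605288 on the plus strand (ID1), chr1:23559502-23559751 on the minus strand (ID3) and chr15:66701986-66702235 on the plus strand (SMAD6). GTCTAGAC began 12 bases upstream of the SMAD6 start and was present in 0.182% of the 35116 windows of the same length. CAGAC, which does not lie within GTCTAGAC, was present in 38.0% of windows. A gene with several starts has several windows, and the 9 members had 19, so these shares are of windows and not of genes. Among the members CAGAC was found in the single windows of ID3 and BMPR2, in 4 of 8 of TGFBR1 and in 2 of 3 of SMAD7. The GC-rich element GGCGCC, held by 16.4% of windows, was found for BMPR2 and in 1 of 8 windows of TGFBR1. TATAAA, held by 6.80% of windows, was found for ID1 and in 1 of 3 windows of SMAD7. A match describes these letters only.

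The libraries held 33421051 to 39899258 reads in genes, recovered from the deposited FPKM values (a level scaled to gene length and library depth). Of 12 endothelial markers, 10 had a mean of at least 1 FPKM, among them PECAM1, CDH5, KDR and TEK. The means of EMCN and VWF lay between 0.1 and 1 FPKM. The summed level of the 12 markers was 529.3 to 726.5 FPKM in control and 528.5 to 682.9 FPKM in estradiol libraries. None of 7 fibroblast and 7 macrophage markers reached 1 FPKM, with COL1A1, COL3A1, DCN, PTPRC and CSF1R under 0.1 FPKM. Of 7 smooth muscle markers only ACTA2 and TAGLN reached it, and MYH11, CNN1 and DES were under 0.1 FPKM. Of 7 epithelial markers KRT8, KRT18, KRT19 and CLDN7 reached it, and EPCAM and CDH1 were under 0.1 FPKM. Control replicate 3 and estradiol replicate 4, called the pair below, stand apart from the other 6 libraries across the transcriptome. Of the 10720 tested genes, 34.6% were higher in both than in each of the other 6, and 43.9% were lower. The labels name no batch. In each comparison below the pair lies with 1 library on either side.

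The receptors were the abundant members and most targets were scarce, on the per-length FPKM scale. Averaged over the 8 libraries, the order was TGFBR2 (48.99 FPKM), ENG (30.7), ACVRL1 (20.8), ID3 (16.46), BMPR2 (11.14), TGFBR1 (5.99), SMAD7 (2.69), ID1 (2.23), ID2 (1.47) and SMAD6 (0.231). ID3 was thus the sole target at the level of the receptors. The ranges of neighbours in this order did not overlap between TGFBR2 and ENG, between BMPR2 and TGFBR1, between TGFBR1 and SMAD7 and between ID2 and SMAD6. The ranges of the other neighbours overlapped. ENG nevertheless exceeded ACVRL1 in 8 of 8 libraries, by 1.36- to 1.79-fold, and ACVRL1 exceeded ID3 in 8 of 8. ID3 exceeded BMPR2 in 6 of 8, SMAD7 exceeded ID1 in 7 of 8 and ID1 exceeded ID2 in 7 of 8. Depth was ample for the receptors, with 1833 to 14007 reads per gene and library. ID3 had 444 to 696 reads and SMAD7 247 to 442. ID1 had 60 to 145, ID2 56 to 89 and SMAD6 43 to 111, for which counting error alone was 8.31 to 12.9%, 10.6 to 13.4% and 9.49 to 15.3% of the value. In bulk RNA, fewer cells making a transcript and less transcript per cell cannot be told apart.

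No member passed the test between estradiol and control. Of the 10720 genes with a mean of at least 1 FPKM, 0.0% passed limma at a Benjamini-Hochberg adjusted p under 0.05 on log2(FPKM + 1). The 9 members in that test, all but SMAD6, each had an adjusted p of 0.99999. At an unadjusted p under 0.05, limma gave 0.243% of all genes (26 genes) and 0 of the 9 members. The groups overlapped for all 10 members, while they did not overlap for 0.532% of all tested genes. Over the alternatives tried, the adjusted p of a member lay between 0.791 and 1.0.

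**Figure D1:**
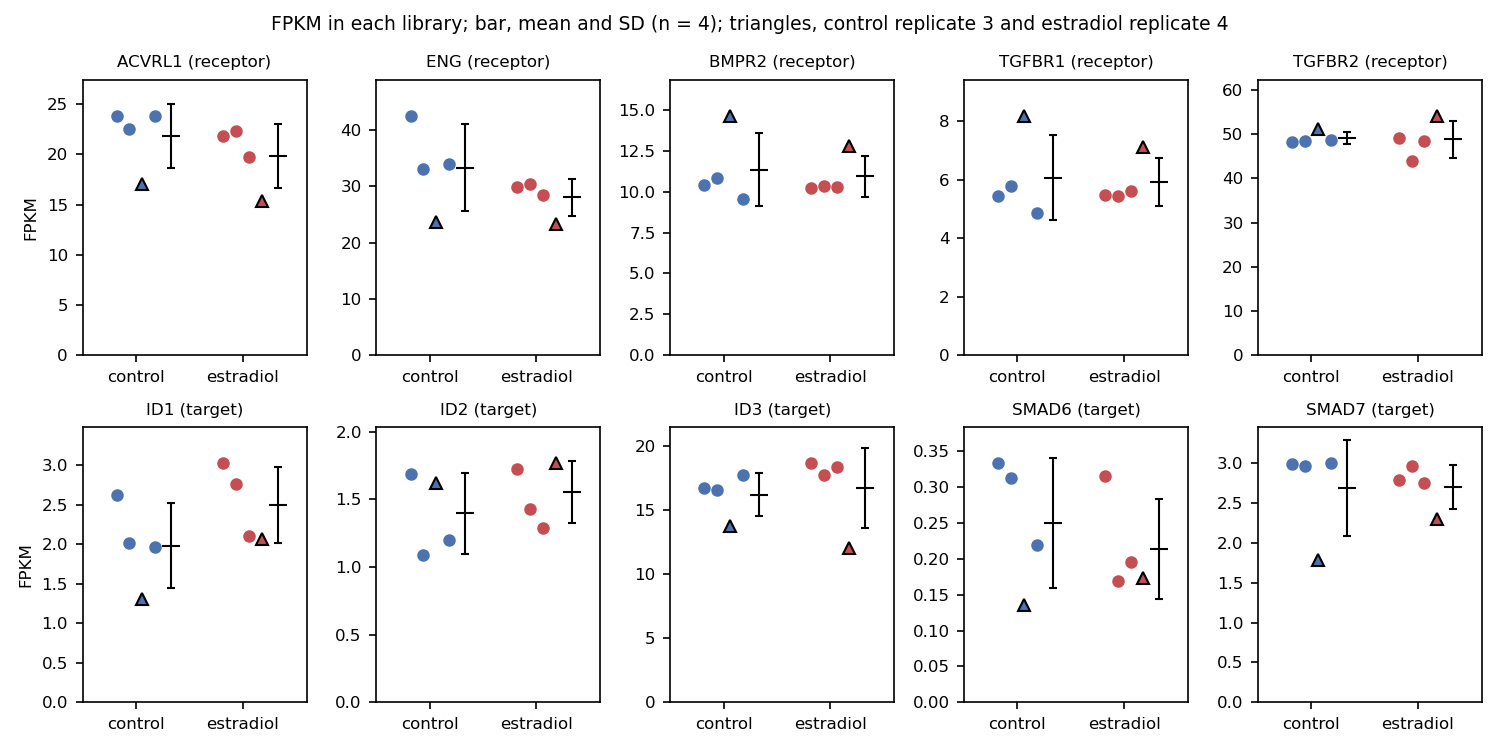
FPKM (vertical axis, from 0) of the 5 receptors (top row) and 5 targets (bottom row) in each control (blue) and estradiol (red) library, with the mean and SD of each group (n = 4) as a bar and the pair (control replicate 3 and estradiol replicate 4) as triangles. The groups overlap in every panel, and the triangles lie below the circles for ACVRL1, ENG, ID3 and SMAD7 and above them for BMPR2, TGFBR1 and TGFBR2.

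ENG, the co-receptor that presents BMPs to ACVRL1, had the largest receptor difference. It measured 42.54, 33.13, 23.64 and 34.06 FPKM in control replicates 1 to 4 and 29.97, 30.38, 28.52 and 23.35 FPKM in estradiol replicates 1 to 4. Control replicate 1 was the highest and the members of the pair were the lowest in their groups. The ranges overlapped through control replicate 3 alone, since the other controls lay above the highest estradiol value (30.38 FPKM). The means were 33.34 ± 7.73 and 28.06 ± 3.24 FPKM (SD, n = 4 each), a log2 fold change of -0.22 ± 0.16 (SE) with a 95% interval of -0.59 to 0.15. In the 6 libraries without the pair the control values all lay above the estradiol values, and the log2 fold change was -0.29 ± 0.088 (SE; limma unadjusted p = 0.0107, adjusted p = 0.992). Within the pair it was -0.017, so the difference was not seen there. Without control replicate 1 it was -0.096, and without control replicate 3 it was -0.37.

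ACVRL1, the type I receptor that works with ENG, stood at 23.77, 22.49, 17.08 and 23.83 FPKM in the control libraries and at 21.86, 22.33, 19.75 and 15.31 FPKM in the estradiol libraries. Again the lowest library of each group was that of the pair. Means were 21.79 ± 3.20 and 19.81 ± 3.20 FPKM (SD, n = 4 each), and the log2 fold change was -0.13 ± 0.14 (SE), with a 95% interval of -0.46 to 0.19. It was -0.15 within the pair and -0.13 ± 0.058 (SE) in the other 6 libraries (limma unadjusted p = 0.055, adjusted p = 0.992), where the groups did not overlap. Without estradiol replicate 4 it was -0.021, and without control replicate 3 it was -0.24. Over the 6 libraries, 9.52% of all tested genes had groups that did not overlap, as did 3 of the 10 members: ENG, ACVRL1 and SMAD7, in each case with the estradiol libraries lower.

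BMPR2, the type II receptor of the BMP branch, measured 10.43, 10.83, 14.64 and 9.53 FPKM in control and 10.25, 10.38, 10.31 and 12.79 FPKM in estradiol libraries. The high values were those of the pair, and the other 6 libraries lay within 9.53 to 10.83 FPKM. Its log2 fold change was -0.039 ± 0.13 (SE), with a 95% interval of -0.34 to 0.26. TGFBR1, the type I receptor for TGF-beta, measured 5.45, 5.78, 8.18 and 4.87 FPKM in control and 5.46, 5.45, 5.60 and 7.13 FPKM in estradiol libraries. It had the same shape, with the pair on top, and a log2 fold change of -0.019 ± 0.14 (SE; 95% interval -0.34 to 0.30). The BMPR2 level was 1.79 to 1.96 times that of TGFBR1 in the 8 libraries, although each gene varied by over 15% (coefficients of variation of 15.3% and 18.3%). TGFBR2, the type II receptor for TGF-beta, was the steadiest member over the 8 libraries (coefficient of variation 5.92%). It stood at 48.25, 48.40, 51.22 and 48.67 FPKM in control and 49.03, 43.87, 48.38 and 54.13 FPKM in estradiol libraries, with a log2 fold change of -0.012 ± 0.087 (SE; 95% interval -0.21 to 0.18). Estradiol replicate 2 was its lowest library and estradiol replicate 4 its highest. None of these 3 differences had a stable direction. Without control replicate 3 the log2 fold changes were 0.080 (BMPR2), 0.11 (TGFBR1) and 0.0082 (TGFBR2), and in the 6 libraries without the pair BMPR2 and TGFBR1 stood at 0.0086 and 0.033. TGFBR1 also turned positive without estradiol replicate 1, 2 or 3 (0.011, 0.011 and 0.00099), and TGFBR2 without estradiol replicate 2 (0.038).

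ID1, a BMP target, had the largest log2 fold change of the members by size over all 8 libraries. ENG had a larger one in the 6 libraries without the pair and without control replicate 3 or estradiol replicate 1 or 2. It measured 2.62, 2.02, 1.31 and 1.97 FPKM (126, 98, 60 and 96 reads) in control and 3.02, 2.77, 2.10 and 2.07 FPKM (145, 113, 101 and 98 reads) in estradiol libraries. Control replicate 1 lay among the estradiol values, and the other 3 controls lay below all of them. Means were 1.98 ± 0.537 and 2.49 ± 0.480 FPKM (SD, n = 4 each), and the log2 fold change was 0.24 ± 0.15 (SE), with a 95% interval of -0.091 to 0.56 (limma unadjusted p = 0.138). It was 0.41 within the pair and 0.18 ± 0.11 (SE) in the other 6 libraries. With 1 library left out it stayed positive, from 0.12 (without control replicate 3) to 0.34 (without control replicate 1).

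ID2 and ID3 encode proteins of the same family. ID2 stood at 1.68, 1.09, 1.62 and 1.20 FPKM in control and 1.73, 1.43, 1.29 and 1.77 FPKM in estradiol libraries, so both groups spread over nearly the same range. Its log2 fold change was 0.095 ± 0.11 (SE; 95% interval -0.15 to 0.34). An antisense gene, ID2-AS1, overlaps ID2 in the GENCODE 29 annotation and measured 0.265 FPKM on average. Without a stated strand setting, reads of ID2 and ID2-AS1 cannot be told apart, and the same holds for ENG and the opposite-strand gene AL162586.1. ID3 stood at 16.73, 16.56, 13.80 and 17.78 FPKM in control and 18.67, 17.73, 18.37 and 12.05 FPKM in estradiol libraries. The 3 estradiol libraries outside the pair lay at or near the top, and the estradiol library of the pair was the lowest of all 8. Its log2 fold change was 0.027 ± 0.14 (SE; 95% interval -0.29 to 0.35), with 0.096 ± 0.049 (SE) in the 6 libraries and -0.18 within the pair. It turned negative without control replicate 3 (-0.044) or without estradiol replicate 1, 2 or 3 (-0.031, -0.0069 and -0.023).

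SMAD7, the inhibitory SMAD of both branches, measured 2.98, 2.96, 1.78 and 3.00 FPKM in control and 2.78, 2.96, 2.74 and 2.30 FPKM in estradiol libraries. The pair gave the lowest value of each group. Its log2 fold change was 0.019 ± 0.13 (SE; 95% interval -0.27 to 0.31) over 8 libraries. It was 0.25 within the pair and -0.057 ± 0.056 (SE) in the other 6, where the nearest control and estradiol values were both 2.96 FPKM. It also turned negative without control replicate 3 (-0.11) or estradiol replicate 2 (-0.015). SMAD6, the inhibitory SMAD of the BMP branch, was the scarcest member and fell under the filter. It stood at 0.333, 0.312, 0.135 and 0.219 FPKM (111, 105, 43 and 74 reads) in control and at 0.316, 0.169, 0.195 and 0.173 FPKM (105, 48, 65 and 57 reads) in estradiol libraries. Each group held high and low libraries, and the exact two-sided permutation p was 0.6 (n = 4 each; log2 fold change -0.041).

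**Figure D2:**
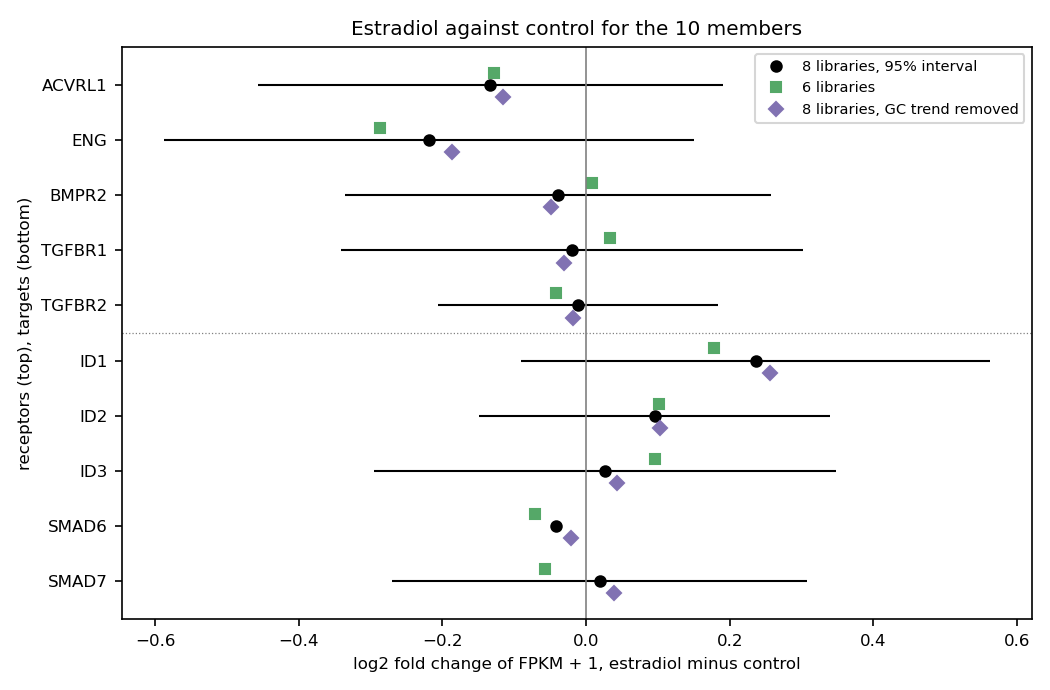
Log2 fold change of FPKM + 1 (horizontal axis, estradiol minus control) for the 5 receptors and 5 targets, with all 8 libraries (black, with the 95% interval, not available for SMAD6), with the 6 libraries outside the pair (green) and after removal of each library's GC trend (purple). All black intervals include 0. In all 3, ENG, ACVRL1, TGFBR2 and SMAD6 lie left of 0 and ID1, ID2 and ID3 right of 0, while BMPR2, TGFBR1 and SMAD7 change side.

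The receptors were set against the targets by the direction of their differences and by their mean levels in each library. The log2 fold change was negative for 5 of 5 receptors (median -0.039) and positive for 4 of 5 targets (median 0.027, SMAD6 included). It was positive for 49.5% of all tested genes (median -0.00047). The mean log2(FPKM + 1) of the 5 targets minus that of the 5 receptors was -2.41, -2.49, -2.71 and -2.43 in control and -2.25, -2.31, -2.37 and -2.50 in estradiol libraries. In the 6 libraries outside the pair every estradiol value was above every control value. For comparison, 9.52% of all tested genes had groups that did not overlap there, in either direction. Within the pair the target minus receptor value was higher in the estradiol library by 0.21, but over all 8 libraries the groups overlapped in this value. The means were -2.51 ± 0.136 and -2.36 ± 0.106 (SD, n = 4 each), a difference of 0.15 beside a pooled SD between libraries of 0.122. On this log2(FPKM + 1) scale, ID1 (0.24), ENG (-0.22), ACVRL1 (-0.13) and ID2 (0.095) had the largest log2 fold changes by size and weighed most in this difference. The other members lay between -0.041 (SMAD6) and 0.027 (ID3). The scale shrinks the value of SMAD6, which was -0.14 with a pseudocount of 0.1 and -0.19 on recovered reads. ACVRL1 was -0.14 in both of these settings, and the difference of targets minus receptors was 0.17 in both. No p is given, since the 10 genes were chosen with earlier results of these data known. Without control replicate 3 the difference was 0.086. In that fit the log2 fold change was negative for 2 of 5 receptors (median 0.0082) and positive for 2 of 5 targets (median -0.044). Without estradiol replicate 2 it was negative for 3 receptors (median -0.018) and positive for 2 targets (median -0.0069). In the 6 libraries it was negative for 3 of 5 receptors and positive for 3 of 5 targets.

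**Figure D3:**
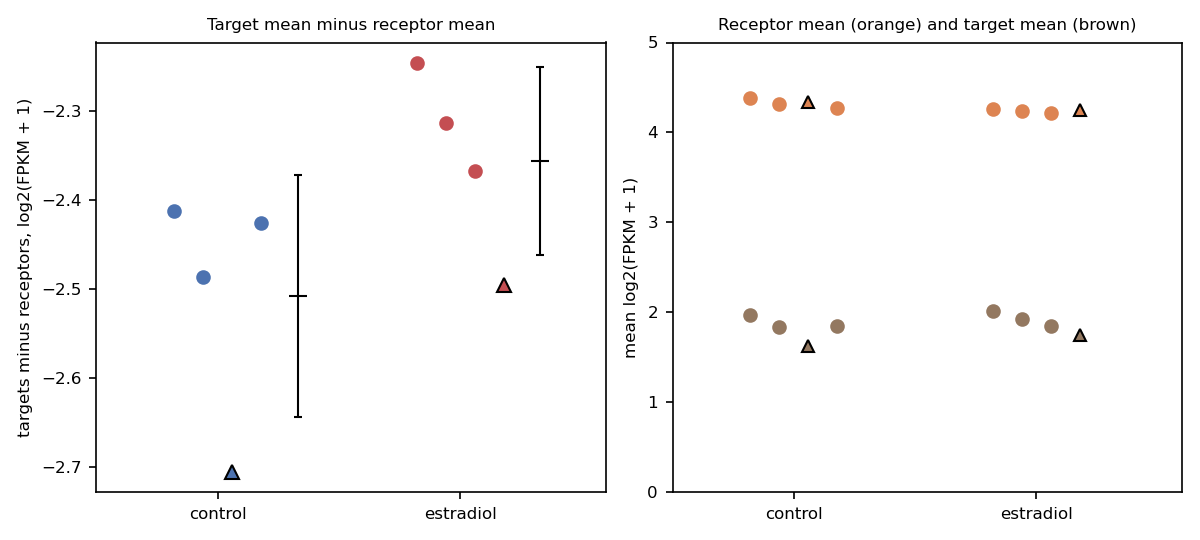
Left, the mean log2(FPKM + 1) of the 5 targets minus that of the 5 receptors in each library, with the group mean and SD (n = 4) as a bar; right, the receptor mean (orange) and target mean (brown) from 0. Triangles are control replicate 3 and estradiol replicate 4, and estradiol circles (-2.37 to -2.25) lie above control circles (-2.49 to -2.41) while the estradiol triangle (-2.50) lies among the controls.

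The pair split the members into opposing sets, as it did the tested genes at large. Relative to the other 6 libraries, the pair was lower in mean log2(FPKM + 1) for ENG (-0.47), ACVRL1 (-0.44), ID3 (-0.42), SMAD7 (-0.37), ID1 (-0.35) and SMAD6 (-0.12). It was higher for TGFBR1 (0.43), BMPR2 (0.38), ID2 (0.17) and TGFBR2 (0.14). For 7 of the 10 members both libraries of the pair lay outside the range of the other 6: below for ACVRL1, ENG, ID3 and SMAD7, and above for BMPR2, TGFBR1 and TGFBR2. The shares of all tested genes were 43.9% below and 34.6% above. The GC content of the longest GENCODE 29 transcript was 37.6% for BMPR2, 39.0% for TGFBR1 and 47.4% for TGFBR2, against 57.2 to 63.3% for ID3, ACVRL1, ID1, SMAD7, SMAD6 and ENG. ID2, at 53.3%, went the other way from its neighbours, on 79 and 89 reads in the pair against 56 to 88 in the other 6. Across the 10 genes, which share these libraries and are not replicates, the shift had a Pearson r of -0.911 and a Spearman rho of -0.758 with GC content. Across 10250 tested genes r was -0.863. The median shift was 0.46 for genes under 40% GC and -0.43 for genes of at least 57% GC.

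**Figure D4:**
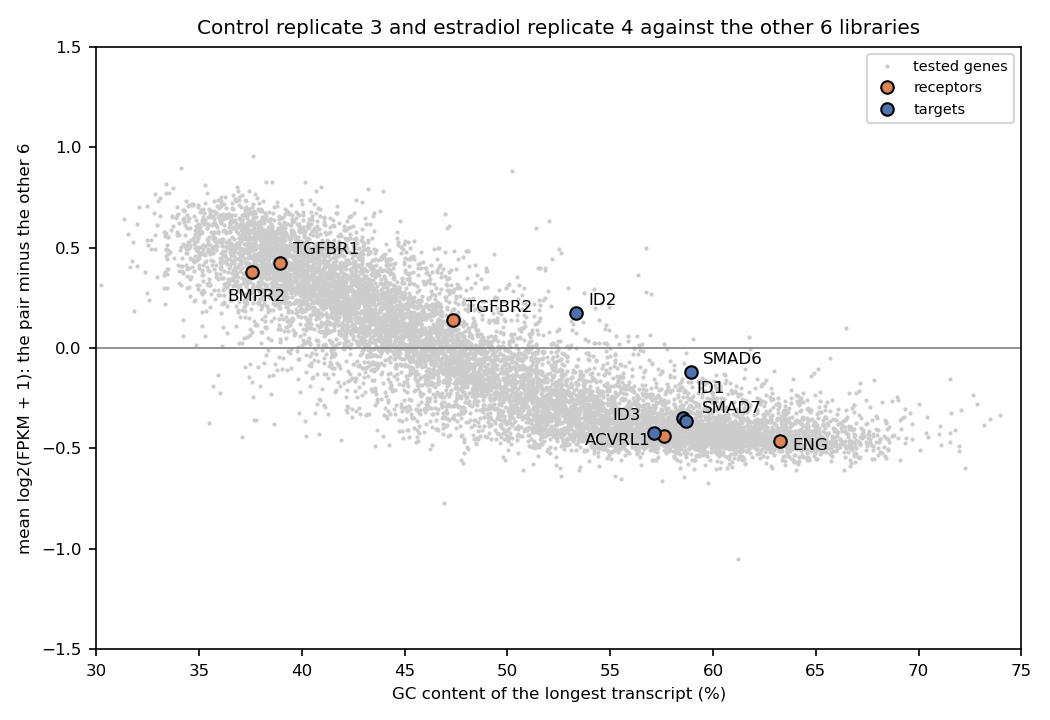
Difference in mean log2(FPKM + 1) between control replicate 3 with estradiol replicate 4 and the other 6 libraries (vertical axis) against the GC content of the longest transcript (horizontal axis, %), for tested genes (grey), receptors (orange) and targets (blue). BMPR2 and TGFBR1 lie at the upper left with GC contents under 40%, and ACVRL1, ENG, ID1, ID3 and SMAD7 at the lower right.

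After removal of the GC trend of each library the SE was smaller for 8 of the 9 members tested and larger for ID2 (0.15 against 0.11), and no member passed. The log2 fold changes became -0.19 ± 0.054 for ENG (limma unadjusted p = 0.00608), 0.26 ± 0.078 for ID1 (0.00817) and -0.12 ± 0.041 for ACVRL1 (0.0181), with SE. For each the adjusted p was 0.999. These 3 of 9 members were under an unadjusted p of 0.05, as were 2.49% of all genes in that fit. With a term for the pair instead, the same 3 members were under it, against 3.27% of all genes. In the 6 libraries ENG alone was, against 3.88%. The members were chosen with earlier results of these data known and can vary together, so whether these counts exceed the shares of all genes was not tested. The other members had log2 fold changes from -0.049 (BMPR2) to 0.10 (ID2) after GC removal.

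Outside the pair, a few members varied together. Pearson correlations of log2(FPKM + 1) are given as a description of likeness over the 6 libraries. Group means were not removed, so differences between estradiol and control libraries are part of each r. BMPR2 and TGFBR1 had r = 0.964, ID1 and ID2 had r = 0.895, ACVRL1 and SMAD7 had r = 0.877 and ACVRL1 and ENG had r = 0.767. ID3 did not follow ID1 (r = 0.301) and had a negative r with SMAD7 (-0.757) and ENG (-0.727). Over these 6 libraries the coefficient of variation was 3.89% for SMAD7 and 4.83% for ID3. Counting error alone was at least 4.76% for SMAD7 and 3.79% for ID3. The correlations of SMAD7 and ID3 therefore rest on variation under or close to counting error. Among 10719 genes ordered by likeness to ID1, ID2 ranked 101 and ID3 3859, and NUDC, LAGE3 and ACBD3 were the most alike (r = 0.981, 0.974 and 0.972). For ENG the most alike were GNAS, KIAA1522 and SCAMP4 (r = 0.991, 0.989 and 0.988), with ACVRL1 at rank 999. For ID3 they were CCT5, RNF7 and SLC35E3 (r = 0.983, 0.982 and 0.971), and for SMAD6 SNHG12, RAB4A and HECA (r = 0.985, 0.984 and 0.982). With 6 values per gene and so many genes searched, the highest r can be this large by chance, which was not tested. Over all 8 libraries, where the pair dominates, the most alike were others: ZNF653, PTPRE and C6orf47 for ID1, TAPBP, MGAT4B and SH2D3C for ENG, MIEN1, UPP1 and COX8A for ID3, and CLN8-AS1, CHST7 and IRF1-AS1 for SMAD6.

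The rest of the pathway was measured through 61 further genes, of which 42 were tested. None passed limma in either direction. Of the 42, 11 had positive and 31 negative log2 fold changes, with a median of -0.041 against -0.00047 for all tested genes. The counts by direction here and below are of the fit of all 8 libraries and were not examined with the pair left out. Genes that share libraries can vary together, so they are not separate observations. Among 12 ligands 5 were tested, all 5 with negative values. GDF15, a stress-induced member of the family, stood at 501.6 ± 107 and 476.8 ± 56.8 FPKM, BMP2 at 50.6 ± 2.33 and 48.0 ± 2.13, and TGFB1 at 50.7 ± 10.6 and 47.9 ± 7.14 (SD, n = 4 each, control first). GDF2 and BMP10, which encode the circulating ligands of ACVRL1, were nearly absent as transcripts, with 1 to 8 and 4 to 15 reads per library. BMP4 stood just under the filter at 1.01 ± 0.152 and 0.914 ± 0.127 FPKM.

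Of 8 other receptors 4 were tested. ACVR1, a type I receptor for BMPs, stood at 34.8 ± 0.643 and 33.7 ± 1.18 FPKM, above ACVRL1. ACVR1B, an activin receptor, stood at 6.53 ± 0.575 and 6.74 ± 0.888 FPKM, and BAMBI, a decoy receptor, at 7.20 ± 0.942 and 6.66 ± 0.943 (SD, n = 4 each, control first). The BMP type I receptors BMPR1A and BMPR1B were at most 0.0731 and 0.0347 FPKM in any library. Of the 6 SMADs that carry or share the signal, 5 were tested and 4 of them had negative values. SMAD3 stood at 19.4 ± 1.504 and 18.9 ± 1.487 FPKM, SMAD5 at 9.75 ± 2.26 and 9.33 ± 1.31, SMAD4, the common partner, at 9.76 ± 1.29 and 9.25 ± 0.569, and SMAD1 at 5.92 ± 0.510 and 5.37 ± 0.486. SMAD1 had the smallest p of this list (log2 fold change -0.12 ± 0.092 SE, limma unadjusted p = 0.228).

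Regulators outside and inside the cell gave no call either. Of 14 extracellular regulators 10 were tested, 9 with negative values. THBS1, an activator of latent TGF-beta, stood at 354.8 ± 6.21 and 341 ± 5.62 FPKM, LTBP1, a latent TGF-beta binding protein, at 37.4 ± 1.57 and 37.2 ± 2.22, FSTL3, an activin antagonist, at 32.7 ± 4.88 and 32.4 ± 6.14, and LTBP2 at 7.65 ± 0.988 and 7.04 ± 0.692 (SD, n = 4 each, control first). Of 11 intracellular regulators 10 were tested, 5 in each direction. FKBP1A, which binds type I receptors, stood at 461.8 ± 3.71 and 456 ± 31.6 FPKM, STUB1, a ubiquitin ligase, at 38.4 ± 8.001 and 38.4 ± 6.53, TGIF1, a SMAD corepressor, at 17.2 ± 1.58 and 17.7 ± 2.48, and SKI, another, at 7.10 ± 0.790 and 6.72 ± 0.495.

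Among 10 further targets 8 were tested, 3 with positive and 5 with negative values. KLF10, an early response gene of TGF-beta, had the smallest p of the whole pathway set, at 16.0 ± 1.82 and 13.5 ± 0.556 FPKM (SD, n = 4 each), with groups that did not overlap (log2 fold change -0.22 ± 0.094 SE, limma unadjusted p = 0.0402, adjusted p = 0.99999). It was the 1 gene of the 42 under an unadjusted p of 0.05, against 0.243% of all tested genes. Groups did not overlap for 0.532% of all tested genes. CCN2, a matricellular growth factor, stood at 130.3 ± 9.15 and 122 ± 11.8 FPKM, and TGFBI, a matrix protein, at 52.0 ± 8.20 and 53.0 ± 6.79 (SD, n = 4 each, control first). ID4, the fourth ID gene, was listed at 0 in all 8 libraries, and ATOH8 stood at 0.177 ± 0.0284 and 0.157 ± 0.0430 FPKM.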

How the data were processed

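RNA of 8 libraries was sequenced (4 control, 4 estradiol, grouped by title). The authors deposited FPKM values of 34415 gene symbols in the 8 libraries. The submitters' processing notes name fastp 0.20.1 and HTSeq. The aligner, genome build, annotation and strand setting were not given in the sources used here. Whole reads were recovered from the steps between a gene's FPKM values: 100.0% of 152348 values above 0 came back within a relative tolerance of 1e-06. They serve as depth and for a limma-voom alternative.

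Members were read by symbol. limma 3.58.1 (R 4.3.3) with a mean-variance trend was fitted to log2(FPKM + 1) of the 10720 genes with a mean of at least 1 FPKM, two-sided, adjusted over all of them. Fold changes on this scale understate those of low genes. SMAD6, under the filter, had an exact permutation test over 70 relabellings. GC content (GENCODE 29) was found for 95.6% of tested genes, and its lowess trend (span 0.3) was fitted per library. Scripts were tested on simulated data. Named pathway genes were the 3 most abundant and the 1 with the smallest p of each list, and genes under the filter that bear on the members. A gene that this rule names is not reported here. The members and lists were chosen with earlier results of these data known. Alternatives are given in the closing section.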

Additional observations from a re-analysis of the deposited data

Results flagged for a closer look

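In 5 of the 20 groups of 4 values (10 members in control and in estradiol) the end value lay far from the others, its gap to the nearest, as a share of the group's range, being above Dixon's 95% critical value for 4 samples. Chance alone flags about 1 in 20 groups, and the 5 groups share libraries. All 5 values came from the pair. In control replicate 3, SMAD7 was 1.78 FPKM against 2.96 to 3.00 in the other controls, and TGFBR2 was 51.22 FPKM against 48.25 to 48.67. In estradiol replicate 4, BMPR2 was 12.79 FPKM against 10.25 to 10.38 in the other estradiol libraries, TGFBR1 was 7.13 against 5.45 to 5.60, and ID3 was 12.05 against 17.73 to 18.67. The 5 values follow the transcript GC content of the genes given in the report, and the part of GC content in them was not tested beyond the fits with the GC trend removed.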

How the results depend on the processing

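The count of genes past the threshold and the count of members past it were 0 in the 10 alternative settings and in the 8 fits with 1 library left out. Of 180 values of members under these, 164 kept their direction and side of the threshold, and 16 turned, each from a value between -0.039 and 0.027. A member under a filter was placed by its unadjusted exact permutation p. SMAD6 had no p with the replicate block or the term for the pair, so only its direction was compared there. With the pair left out BMPR2 was 0.0086, TGFBR1 0.033 and SMAD7 -0.057. With 1 library left out the log2 fold changes ranged from -0.11 to 0.080 (BMPR2), -0.10 to 0.11 (TGFBR1), -0.061 to 0.038 (TGFBR2), -0.044 to 0.17 (ID3) and -0.11 to 0.072 (SMAD7). ENG (-0.37 to -0.096 over those fits), ACVRL1 (-0.24 to -0.021), ID1 (0.12 to 0.34), ID2 (0.031 to 0.15) and SMAD6 (-0.087 to -0.0094) kept their direction in all 18. Values moved by over 1.5 times with a pseudocount of 0.1 and on recovered reads for the scarce targets SMAD6 (-0.14 and -0.19), ID2 (0.15 and 0.17) and SMAD7 (0.032 and 0.030). They also did so with the pair left out for ID3 (0.096), SMAD6 (-0.071) and TGFBR2 (-0.041), and after GC removal for ID3 (0.043), SMAD6 (-0.020), SMAD7 (0.039), TGFBR1 (-0.031) and TGFBR2 (-0.018). TGFBR2 was -0.0073 with median-of-ratios size factors. The difference of targets minus receptors ranged from 0.13 to 0.17 over the other settings and from 0.086 to 0.20 with 1 library left out. Counts at an unadjusted p under 0.05 ranged from 4 of 7221 genes (filter at 5 FPKM) to 437 of 23471 (no filter). The largest share was 3.88%, with the pair left out (416 of 10720). ID1 was under this p without control replicate 1 (limma unadjusted p = 0.0438), and ENG without control replicate 3 (limma unadjusted p = 0.0138). With the replicate block 0 genes passed and ID1 kept 0.24 (unadjusted p = 0.0654). Same-numbered libraries had correlations of deviations of 0.616, 0.0728, -0.478 and -0.737. The negative values each set a library of the pair against one outside it. Whether the numbers pair the samples therefore cannot be judged from these correlations. At 43 to 145 reads, differences of ID1, ID2 and SMAD6 near their counting error were not detectable.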
